A study of Mus musculus with 25 samples.

Results

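The 8 genes described here, Il7r, Il2ra, Il2rg, Kit, Flt3, Cxcr4, Ccr9 and Cd44, encode receptors that let thymocytes read growth signals and find their place in the thymus. They were chosen by name from 21887 protein-coding mouse genes, and each was followed through a window of its gene body plus 30 kb on both sides. Values are the number of peaks and the covered length (kb of the window under a peak) in 25 lists of peaks from chromatin immunoprecipitation with sequencing, on the mm10 build. No expression was measured in these lists.

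The study asked how TCF-1, a transcription factor of early T cell development, takes part in genome folding. Scid.adh cells, a line the labels call DN3 cells after the thymocyte stage it resembles (DN3 is CD4- CD8- and CD25+), carried a TCF1 knockout (KO) or an empty vector (EV, also titled wild type). These cells gave 18 lists, 2 per condition for CTCF, SMC1, NIPBL and H3K27ac, and 2 EV lists for TCF-1. NIH-3T3 fibroblasts, an embryonic line with no T lineage identity, were induced to express TCF1 or left untreated, and gave 7 lists: 2 per condition for CTCF, 1 per condition for SMC1, and 1 induced list for TCF-1. The labels give neither the means of the knockout, the number of clones nor the inducer, and do not say that lists of a condition came from separate cultures, so the spread between them may be technical.

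Interleukin receptors of this set share the chain encoded by Il2rg: with the Il7r chain it binds IL-7, the main survival factor of early thymocytes, and with the Il2ra chain (CD25) it takes part in the high-affinity IL-2 receptor. Kit and Flt3 are receptor tyrosine kinases of blood progenitors, whose ligands are Kitl and Flt3l. Cxcr4 and Ccr9 are chemokine receptors for Cxcl12 and Ccl25, which guide precursors within the thymus, and Cd44 is a hyaluronan receptor. Textbook staging has Kit and Cd44 high on the most immature thymocytes and low at DN3, when Il2ra is high. CTCF bounds chromatin loops, SMC1 belongs to cohesin, the ring complex that extrudes loops, NIPBL loads cohesin, and H3K27ac marks active promoters and enhancers.

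Lists held 38369 to 68306 peaks for CTCF, 70438 to 105033 for SMC1, 9206 to 23951 for NIPBL, 36544 to 42180 for H3K27ac and 4978 to 39489 for TCF-1. Sequencing depth is unknown, since no read totals come with the lists, and absence of a peak means only that none was called. Among NIPBL lists KO list 1 stood apart, with 23951 peaks against 14107 in KO list 2, and it gave the highest NIPBL value at each of the 6 members with a NIPBL peak. KO lists were longer than EV lists for CTCF and SMC1, and the median difference over all gene windows, KO minus EV on the log2 scale, was 0.25 for CTCF, 0.35 for SMC1, 0.51 for NIPBL and -0.02 for H3K27ac. The part of list length in the differences below was not tested. Each is therefore given as deposited and, where that matters, with every list centred on its median over genes. H3K27ac of the DN3 lists covered 276 to 320 kb over 9 T cell precursor markers and had peaks at all 9, against 19.0 to 33.6 kb over 6 fibroblast markers, of which Col1a2, Col3a1 and Twist1 were at 0. The same lists covered 19.1 to 22.7 kb over 4 B cell markers, with Pax5 and Ebf1 at 0, and 44.8 to 49.9 kb over 5 myeloid markers, with Csf1r and Lyz2 at 0. No TCF-1 list of KO cells was analysed here, so that the KO cells lack TCF-1 rests on their labels.

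Of the 8 windows, those of Il7r, Kit and Cxcr4 held no other protein-coding gene. The Il2ra window reached into Il15ra, 12.0 kb beyond it (11978 bp). The Il2rg window also held Foxo4, Gm614 and Med12, the nearest of them 393 bp away. The Flt3 window held Cdx2, Urad and Pan3, the Ccr9 window Fyco1 and Cxcr6, and the Cd44 window Slc1a2. Peaks in shared windows cannot be assigned to 1 of the genes.

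TCF-1 bound near the chemokine receptors, Flt3 and Il2ra in DN3 cells, and near Cd44 in fibroblasts. Sites in both EV lists numbered 3 at Cxcr4, 2 at Flt3, 2 at Ccr9 and 1 at Il2ra, so 4 of 8 windows held such a site, against 24.8% of all gene windows. A site in at least 1 EV list was held by 5 of 8 windows, against 39.2% of all. Il7r had 1 region in a single EV list, 40.1 kb beyond its start, and Il2rg, Kit and Cd44 had none in DN3 cells. In induced fibroblasts 3 of 8 windows held a TCF-1 peak, with 7 at Cd44, 2 at Flt3 and 1 at Il2rg, against 71.0% of all windows. These counts rest on 2 lists and 1 list and carry no test.

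Cxcr4 (chr1:128588199-128592299) had a DN3 site over its own start. That region, chr1:128592107-128592772, spanned 666 bp in EV list 1 and 327 bp in EV list 2. A further 2 sites of both lists lay 0.97 and 22.9 kb before the start, and all of them also held SMC1 and H3K27ac in every DN3 list. At Flt3 (chr5:147330741-147400489) a TCF-1 peak lay over the start in EV list 2 only, and the sites of both lists were 77.0 kb beyond the start and 29.7 kb before it. The distal site before Flt3 lay inside Pan3 and was also the widest Flt3 peak of the fibroblast list, with 694 bp. Both shared sites of Ccr9 (chr9:123767211-123783457) lay before the start, at 6.13 and 10.3 kb, and the shared site of Il2ra (chr2:11642792-11693194) lay 19.4 kb before it. At Cd44 (chr2:102811141-102901669) the 7 fibroblast peaks ran from 26.6 kb before the start to 97.4 kb beyond it, and 38 bp of the promoter lay under one of them.

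Promoter sequences were printed for the members whose promoter held a TCF-1 peak (Cxcr4 and Flt3 in DN3 cells, Cd44 in fibroblasts) and for Il7r, whose promoter differed in NIPBL peaks between KO and EV. They are RefSeq sequences of GRCm38.p6, 5′ to 3′ along the gene, 250 bases before its start to 50 after it. Capitals mark every match, on either strand, to the TCF/LEF motif CTTTGA, the Runx motif TGTGGT, the motif AGATAA of GATA factors, the E-box CAGCTG or the ETS motif ACAGGAAG.
Cxcr4, chr1:128592250-128592549, minus strand: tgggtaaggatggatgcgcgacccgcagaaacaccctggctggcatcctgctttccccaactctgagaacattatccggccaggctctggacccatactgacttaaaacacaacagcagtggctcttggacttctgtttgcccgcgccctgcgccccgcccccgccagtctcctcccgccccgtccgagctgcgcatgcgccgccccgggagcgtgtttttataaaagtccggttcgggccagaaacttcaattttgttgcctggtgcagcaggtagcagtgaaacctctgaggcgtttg
Flt3, chr5:147400440-147400739, minus strand: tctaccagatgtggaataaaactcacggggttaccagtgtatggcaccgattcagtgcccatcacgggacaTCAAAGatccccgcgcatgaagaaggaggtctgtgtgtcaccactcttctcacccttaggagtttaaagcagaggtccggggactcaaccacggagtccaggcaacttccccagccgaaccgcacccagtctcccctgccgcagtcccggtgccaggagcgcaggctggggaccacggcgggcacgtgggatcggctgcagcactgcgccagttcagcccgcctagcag
Il7r, chr15:9529827-9530126, minus strand: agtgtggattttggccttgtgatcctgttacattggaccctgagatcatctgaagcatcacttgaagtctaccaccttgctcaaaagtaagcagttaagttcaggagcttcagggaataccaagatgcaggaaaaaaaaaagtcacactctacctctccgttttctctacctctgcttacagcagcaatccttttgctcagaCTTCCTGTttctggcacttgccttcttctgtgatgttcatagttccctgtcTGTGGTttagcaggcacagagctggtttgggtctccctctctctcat
Cd44, chr2:102901616-102901915, minus strand: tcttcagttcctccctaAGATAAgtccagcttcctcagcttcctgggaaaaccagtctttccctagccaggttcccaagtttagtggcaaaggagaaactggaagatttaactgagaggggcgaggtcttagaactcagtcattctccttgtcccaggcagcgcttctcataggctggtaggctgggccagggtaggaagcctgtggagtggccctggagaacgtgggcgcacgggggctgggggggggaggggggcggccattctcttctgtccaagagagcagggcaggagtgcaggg

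The Cxcr4 promoter, covered by TCF-1 over 300 and 261 of its 300 bases in the EV lists, held no match to any of these letters. The single TCF/LEF match among the 8 promoters was at Flt3, at base -179 relative to the start, and lay 75 bp outside the TCF-1 peak of EV list 2. That motif stood in 14.9% of 17492 promoters. Il7r had a Runx match at base 4 and an ETS match at base -48 relative to the start, in letters found in 15.1% and 3.13% of promoters. A second Runx match lay in the Il2rg promoter, and Cd44 had a GATA match (9.96% of promoters). No member promoter held the E-box letters, which stood in 15.1%. G and C made up 59.3% of the Cxcr4 promoter, 61.0% of Flt3 and 69.0% of Kit, against 45.7% at Il7r and 42.7% at Il2ra, and the median promoter had 56.3%.

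H3K27ac covered the promoters of 6 of 8 members in all 4 DN3 lists, all but Kit and Cd44, while 43.7% to 44.7% of all promoters had such a peak in a list. Per window length, H3K27ac was widest at Cxcr4, where 58.7% to 64.5% of the window was covered, followed by Ccr9 with 47.0% to 60.1% and Il2ra with 47.6% to 51.4%. Flt3 (30.5% to 32.3%), Il7r (29.6% to 32.8%) and Il2rg (21.2% to 29.9%) came next. Neighbours in this order overlapped in their ranges over lists, except Il2ra and Flt3, and Il2rg and Kit. Kit had at most 0.34% of its window covered, and Cd44 was listed at 0 in all 4.

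**Figure D1:**
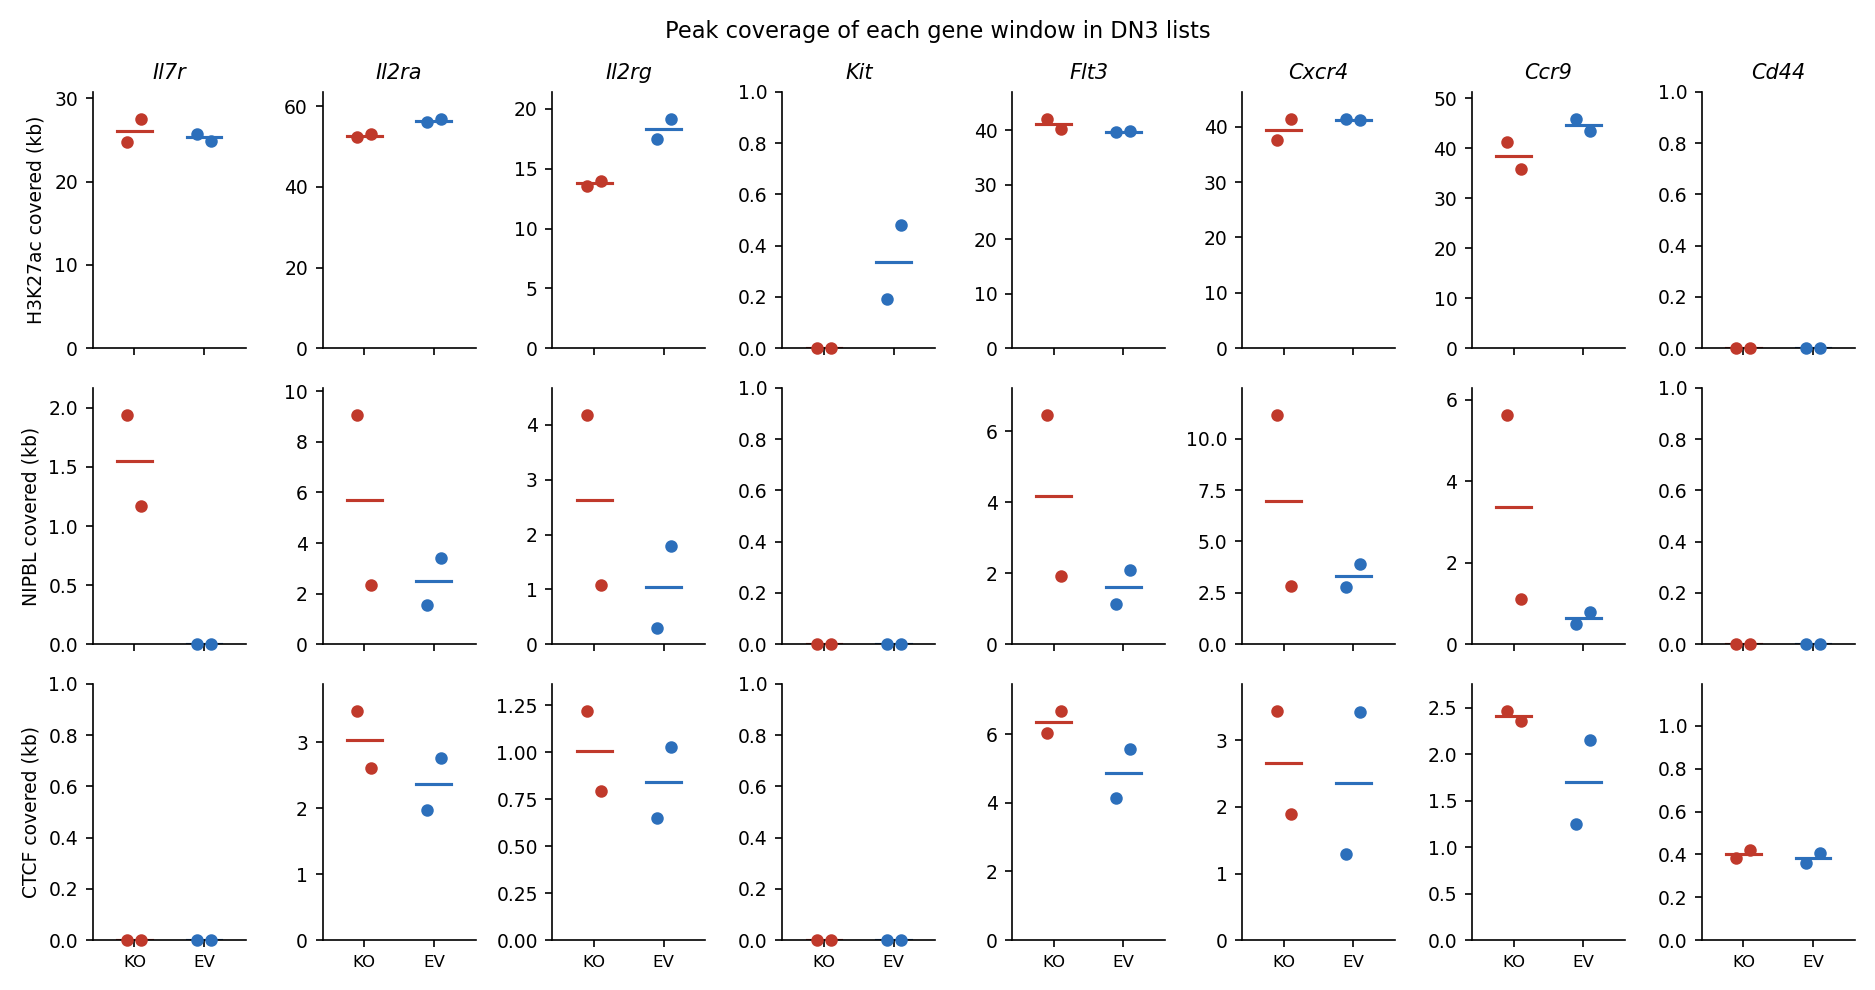
Peak coverage (kb, y axis, from 0, a scale per panel) of each gene window in the 2 KO (red) and 2 EV (blue) DN3 lists for H3K27ac, NIPBL and CTCF; points are lists and lines are group means. H3K27ac points of Il2rg lie at 13.6 and 14.0 kb in KO and 17.5 and 19.1 kb in EV, while Kit and Cd44 are near or at 0 throughout.

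Among the interleukin receptors, Il2rg had less H3K27ac over its window, which holds other genes, in KO lists. Its window had 13.6 and 14.0 kb under H3K27ac peaks in KO lists, against 17.5 and 19.1 kb in EV lists, with no overlap. The log2 difference in covered length (after adding 500 bp, as in every fit here) was -0.39 (SE 0.08), with an adjusted p of 0.0248 in limma over all genes tested. Both KO lists lay below both EV lists for 4 members (34.6% of all genes) and above for 1, Flt3 (28.2% of all genes). By the same test 11.7% of all genes were lower and 9.48% higher, so 1 member lower out of 7 tested is near the background. The acetylated region that holds the Il2rg start, chrX:101264499-101275554, was covered over 6579 and 6811 bp in KO lists and 9873 and 10269 bp in EV lists. This region reached into Med12. At the Il2rg promoter all 300 bases were covered in every list. The fold enrichment of the peak there was 6.91 and 7.17 in KO lists and 7.37 and 6.35 in EV lists. A region past the end of the gene, chrX:101258218-101262693, lay over parts of Foxo4 and Gm614. It was also covered less, over 3193 and 3249 bp in KO lists and 4476 and 3788 bp in EV lists. EV list 2 alone had a further 2 regions, of 380 and 660 bp. With either KO or either EV list left out, the adjusted p was between 0.0641 and 0.117 and the log2 difference between -0.46 and -0.33.

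SMC1 at Il2rg went the other way, with 6.95 and 7.88 kb in KO lists and 4.84 and 4.89 kb in EV lists. This gave a log2 difference of 0.56 (SE 0.13, adjusted p = 0.0404, limma). Centred on list medians the difference was 0.20, with an adjusted p of 0.548, so the rise over the median gene did not pass the test. NIPBL covered 4.17 and 1.08 kb at Il2rg in KO lists and 0.29 and 1.79 kb in EV lists, and CTCF 1.22 and 0.80 kb in KO lists and 0.65 and 1.03 kb in EV lists. Both sets of lists overlapped.

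Il2ra, the CD25 chain, was broadly acetylated in both conditions. H3K27ac covered 52.5 and 53.0 kb in KO lists and 56.1 and 56.8 kb in EV lists, which did not overlap, but the log2 difference was -0.10 (adjusted p = 0.176, limma). In the acetylated region that holds its start, chr2:11632645-11667266, peaks covered 29296 and 29383 bp in KO lists and 32532 and 32546 bp in EV lists. The single peak over the start was 15005 and 8404 bp wide in KO lists and 31750 and 26868 bp wide in EV lists. In every list the rest of the covered length lay in other peaks of that region. SMC1 covered 16.3 and 15.7 kb in KO lists and 17.4 and 11.4 kb in EV lists, and CTCF 3.47 and 2.60 kb in KO lists and 1.98 and 2.77 kb in EV lists. In neither case were the conditions separated, although SMC1 peaks inside the gene 3.68 and 9.51 kb from the start were in both EV lists and no KO list. These were the only 2 EV-only SMC1 regions in the 8 windows.

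**Figure D2:**
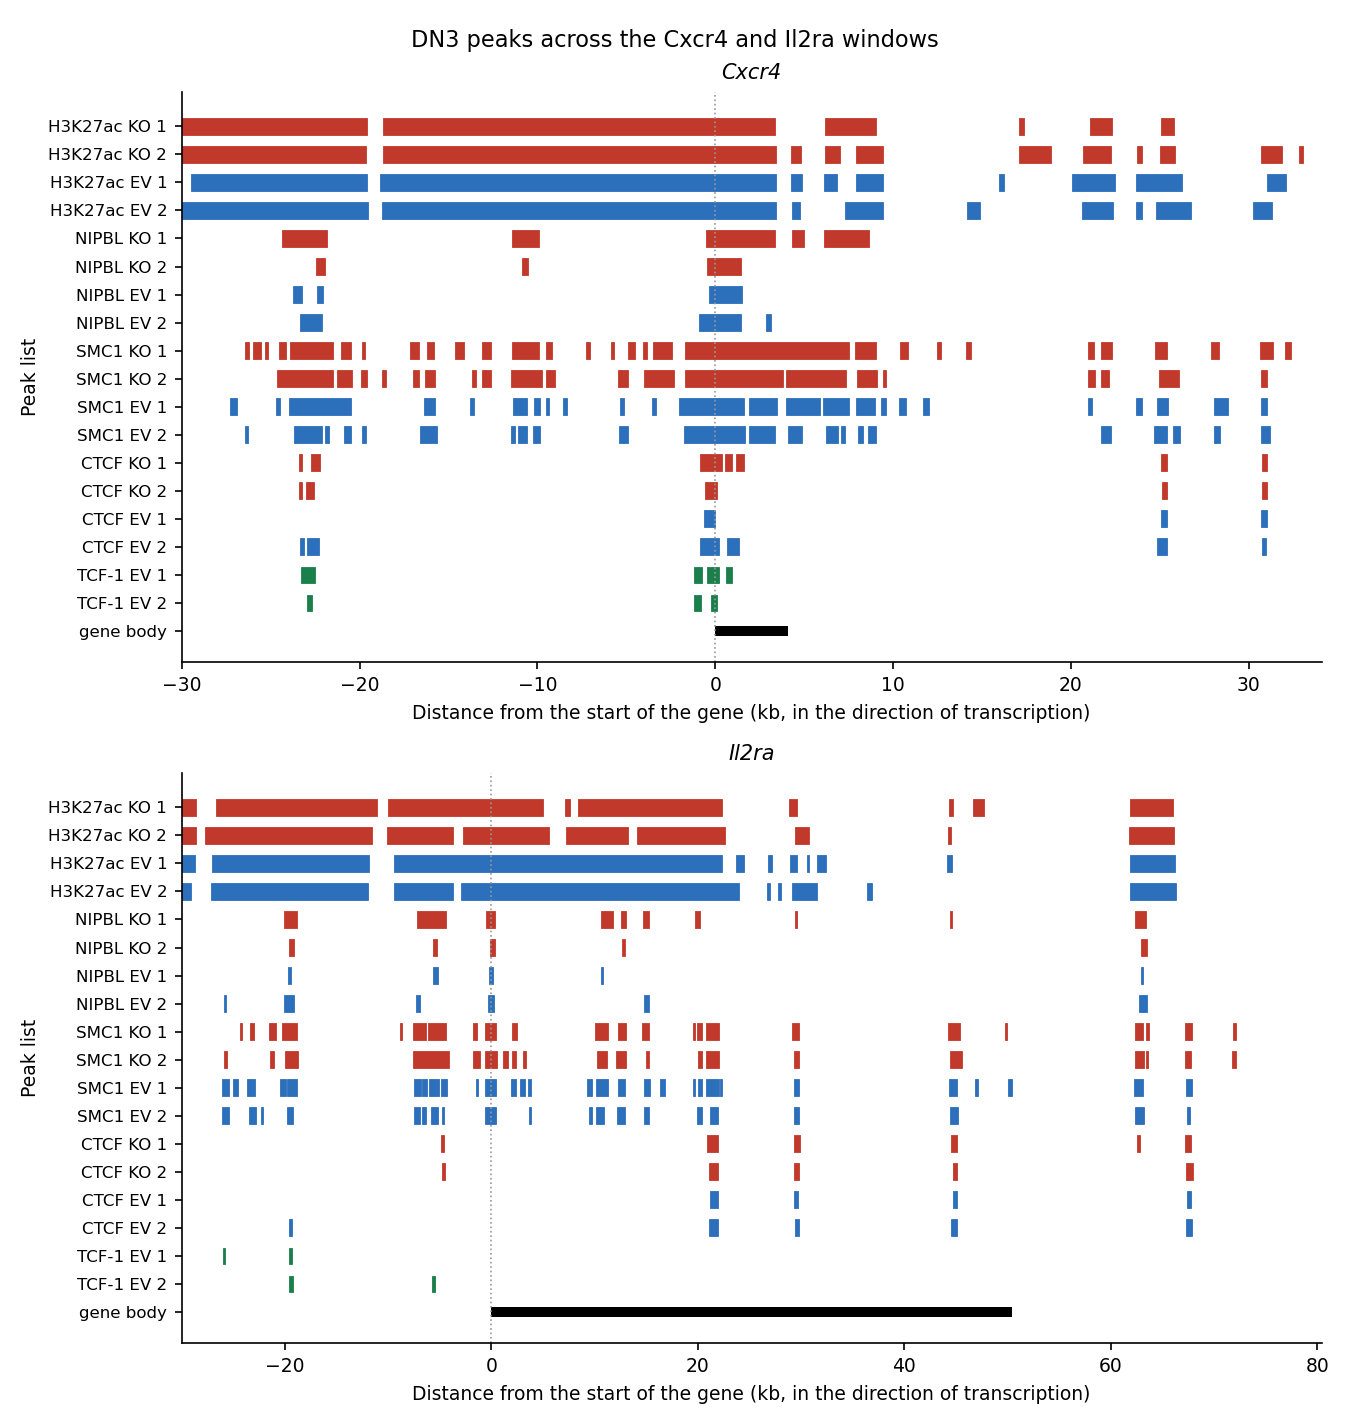
Peaks of every DN3 list across the Cxcr4 and Il2ra windows, by distance from the start of the gene (kb, x axis), with KO lists in red, EV lists in blue, TCF-1 in green and the gene body in black. TCF-1 lies over the Cxcr4 start and 22.9 kb before it, and 19.4 kb before the Il2ra start, inside H3K27ac peaks of all 4 lists.

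Il7r (chr15:9506159-9529941) differed most in NIPBL. Its window had 1.94 and 1.17 kb of NIPBL peaks in KO lists and was listed at 0 in both EV lists, which allows no fold. The fitted difference was 2.01 (SE 0.60), but the adjusted p was 0.647, and Il7r passed the filter only through its KO lists. As deposited, limma called no gene for NIPBL (0.0% higher and 0.0% lower), with 686 genes at an unadjusted p under 0.05. Both KO lists were above both EV lists for 29.0% of all genes. With lists centred 26 of 13776 genes were called higher and 2 lower, and no member was. A NIPBL peak over the promoter printed above covered 300 and 203 of its bases in KO lists, at a fold enrichment of 3.53 and 3.32 in the authors' lists, and none was called there in EV lists. Of all promoters, 41.8% and 33.5% had a NIPBL peak in KO lists 1 and 2, and 25.9% and 38.0% in EV lists 1 and 2. SMC1 covered the whole promoter in all 4 DN3 lists and 9.02 and 6.85 kb of the window in KO lists, against 10.1 and 4.04 kb in EV lists. H3K27ac covered 24.8 and 27.5 kb in KO lists and 25.8 and 24.9 kb in EV lists, so for both marks the conditions overlapped. No CTCF peak was called in this window in any of the 8 CTCF lists.

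Of the receptor tyrosine kinases, Kit (chr5:75574987-75656722) had the largest SMC1 log2 difference of the 8 genes, a value that depends on the 500 bp added. SMC1 covered 4.76 and 2.75 kb of its window in KO lists, in 11 and 8 peaks. EV lists had 0 and 0.21 kb, in 0 and 1 peaks. Mean coverage at Kit was 3.76 kb in KO and 0.11 kb in EV lists. In kb, KO and EV means lay further apart at Ccr9 (19.6 and 11.7), Flt3 (17.5 and 10.9) and Cxcr4 (24.1 and 17.5). At Kit the log2 difference was 2.79 (SE 0.29, 95% interval 2.07 to 3.51, adjusted p = 0.0173, limma). It remained 2.43 with lists centred (adjusted p = 0.00121), where 0.959% of all genes were called higher and Kit was the only member called. Kit passed the filter, which asked for coverage in at least 2 lists, only through its KO lists and the 1 peak of EV list 2. Without the filter the adjusted p was 0.0712. By number of peaks it was 0.221. Without KO list 1 it was 0.18 and without KO list 2 it was 0.0965, with differences of 2.44 and 3.14.

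Of 15 merged SMC1 regions in the Kit window, 5 were in both KO lists and no EV list, a class that held 9.26% of all SMC1 regions. Of the 5, 4 lay inside the gene, 18.5, 23.1, 48.8 and 70.6 kb beyond the start. The other lay past its end at 94.9 kb. The widest, chr5:75597363-75598875, covered 1513 and 767 bp in the KO lists. None of the 5 lay at a TCF-1 peak, and the Kit window held no TCF-1, CTCF or NIPBL peak in any list. H3K27ac was listed at 0 in both KO lists, so for it Kit passed the filter only through EV lists. These had 0.19 and 0.48 kb, with an adjusted p of 0.0834 (limma). All Kit values are therefore those of a window with little called signal.

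**Figure D3:**
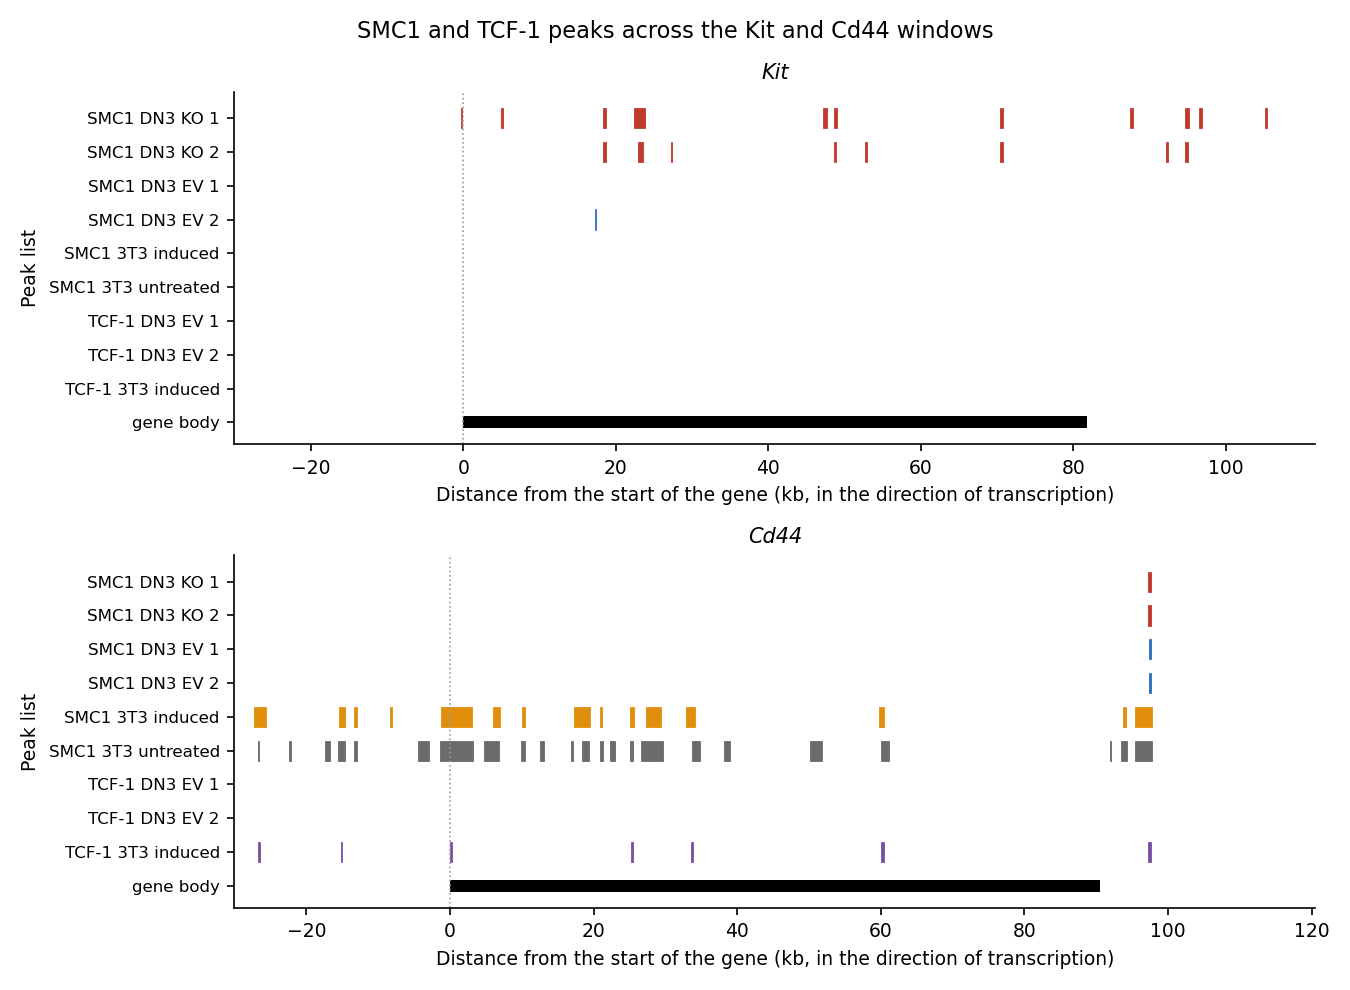
SMC1 and TCF-1 peaks across the Kit and Cd44 windows by distance from the start of the gene (kb, x axis), 1 row per list, DN3 KO above DN3 EV and induced above untreated fibroblasts, with the gene body in black. KO lists have 11 and 8 SMC1 peaks at Kit against 0 and 1 in EV lists, and at Cd44 the fibroblast lists have 15 and 23 against 1 in each DN3 list.

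Flt3 rose in SMC1, with 16.1 and 18.8 kb in KO lists and 9.87 and 11.8 kb in EV lists. The log2 difference was 0.66 (SE 0.14, adjusted p = 0.0376, limma), and 0.31 with lists centred (adjusted p = 0.472). H3K27ac at Flt3 was 42.0 and 40.3 kb in KO lists and 39.6 and 39.8 kb in EV lists, above in both KO lists by a log2 difference of 0.05 that did not pass the test (adjusted p = 0.544). NIPBL covered 6.45 and 1.91 kb in KO lists and 1.14 and 2.08 kb in EV lists. CTCF covered 6.02 and 6.66 kb in KO lists and 4.15 and 5.58 kb in EV lists, without overlap, but with an adjusted p of 0.647. No member was called for CTCF, where 1.5% of all genes were called higher and 0.0219% lower, and Flt3 and Ccr9 were the 2 of 6 tested members with both KO lists above, as were 43.5% of genes.

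Of the homing receptors, Ccr9 rose in SMC1, with 19.3 and 19.9 kb in KO lists and 13.1 and 10.3 kb in EV lists. The log2 difference was 0.73 (SE 0.15, adjusted p = 0.0323, limma), and 0.37 with lists centred (adjusted p = 0.487). NIPBL covered 5.61 and 1.11 kb in KO lists and 0.50 and 0.78 kb in EV lists, and CTCF 2.46 and 2.36 kb in KO lists and 1.25 and 2.16 kb in EV lists. Neither overlapped and neither passed the test. H3K27ac at Ccr9 was 41.2 and 35.8 kb in KO lists and 45.8 and 43.6 kb in EV lists, with a log2 difference of -0.21 (adjusted p = 0.142). In the acetylated region over the start of Ccr9, chr9:123753296-123781686, peaks covered 27022 and 24676 bp in KO lists and 28378 and 27095 bp in EV lists.

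Cxcr4 had SMC1 over 25.01 and 23.26 kb in KO lists and 19.9 and 15.2 kb in EV lists, which did not overlap (log2 difference 0.46, adjusted p = 0.0908, limma). In the merged SMC1 region that holds the start, chr1:128584755-128594330, peaks covered 9248 and 8916 bp in KO lists and 8538 and 6672 bp in EV lists. H3K27ac over the start hardly differed, in peaks of 22089 and 22081 bp in KO lists and 22274 and 22196 bp in EV lists, and the window had 37.6 and 41.3 kb in KO lists and 41.3 and 41.1 kb in EV lists. NIPBL covered 11.1 and 2.82 kb in KO lists and 2.76 and 3.90 kb in EV lists, and CTCF 3.43 and 1.90 kb in KO lists and 1.29 and 3.43 kb in EV lists. A NIPBL region 10.7 kb before the start was in both KO lists (1520 and 382 bp) and neither EV list. A CTCF peak lay over the Cxcr4 start in both KO lists and in EV list 2. In EV list 1 the peak, chr1:128592310-128592925, lay just before the start and did not cover it. In all 4 DN3 lists the CTCF peak overlapped the TCF-1 region there.

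Cd44 in DN3 cells had a single SMC1 region, 97 kb from the start and past the end of the gene. It covered 0.39 and 0.36 kb in KO lists and 0.31 and 0.26 kb in EV lists (log2 difference 0.16, adjusted p = 0.292, limma). CTCF covered 0.38 and 0.42 kb in KO lists and 0.36 and 0.41 kb in EV lists. No NIPBL or H3K27ac peak was called in the window.

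In all, 4 of 8 members, Kit, Ccr9, Flt3 and Il2rg, passed the SMC1 test as higher in KO, against 13.7% of all genes higher and 0.168% lower. Both KO lists were above both EV lists for 6 members, where 72.0% of all genes showed the same order. The median over members was 0.51 and that over all genes 0.35, and with lists centred the median over members was 0.15. Centring turned the sign for Il7r, Il2ra and Cd44, none of which was called. With a list left out, 1 condition rests on 1 list, so called members are not counted. The log2 difference then ran from 2.44 to 3.14 at Kit, 0.56 to 0.90 at Ccr9, 0.54 to 0.79 at Flt3 and 0.47 to 0.64 at Il2rg. It stayed above 0 at Cxcr4 (0.27 to 0.65) and Cd44 (0.11 to 0.21). It changed sign at Il7r (-0.34 to 0.88) and Il2ra (-0.12 to 0.47).

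Merged SMC1 regions in the 8 windows numbered 193, of which 18 were KO-only (9.26% of all SMC1 regions are), 2 EV-only (0.968%) and 55 in every list (43.6%). For NIPBL 6 of 43 regions were KO-only (5.88%), 0 EV-only (0.251%) and 11 in every list (27.5%). For CTCF 2 of 41 were KO-only (6.36%), at Il2ra and Ccr9, 0 EV-only (0.46%) and 23 in every list (55.2%). For H3K27ac 1 of 64 was KO-only (4.82%), at Cxcr4, 3 were EV-only (7.99%), at Il7r, Il2ra and Ccr9, and 37 in every list (47.9%). None of the KO-only or EV-only regions lay at a TCF-1 peak.

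**Figure D4:**
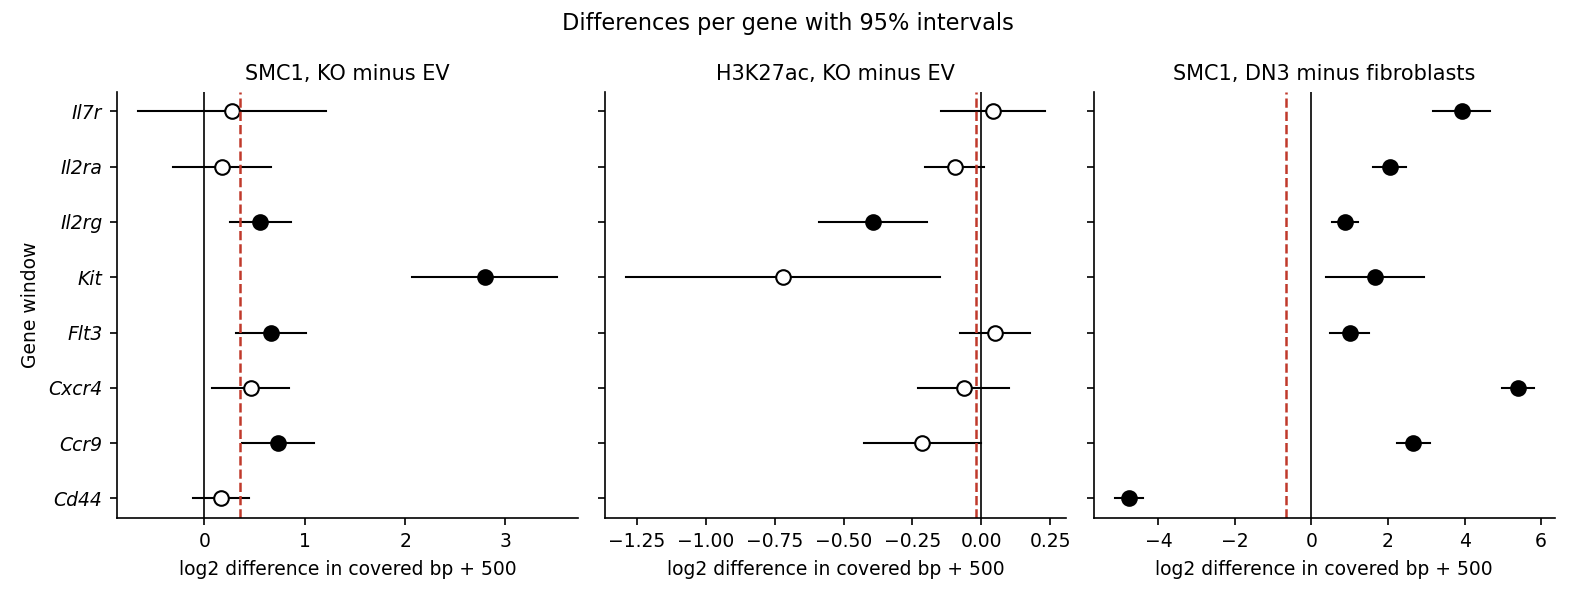
Log2 differences in covered length per member (x axis, covered bp + 500) with 95% intervals from limma, for SMC1 and H3K27ac, KO minus EV, and for SMC1, DN3 minus fibroblasts. Filled points passed an adjusted p of 0.05 over all genes and the dashed line is the median of all genes, at 0.35, -0.02 and -0.67.

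Between the cell lines, cohesin marked 6 of the 8 receptors more widely in DN3 cells, and Cd44 more widely in fibroblasts, and Kit was called higher in DN3 only under some settings. This comparison set 4 DN3 against 2 fibroblast SMC1 lists with presence of TCF-1 as a term, and 9.72% of all genes were called higher in DN3 and 59.2% lower. With lists centred 40.4% of genes were called higher and 5130 of 19035 lower, and all 8 members kept their direction and their call. Median differences were 1.85 over members and -0.67 over all genes.

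Cxcr4 had 15.21 to 25.01 kb of SMC1 in the 4 DN3 lists (median 21.6 kb) and was listed at 0 in both fibroblast lists, as was Il7r, with 4.04 to 10.1 kb in DN3 lists. The fitted differences were 5.39 (adjusted p = 7.83e-07) and 3.93 (adjusted p = 2.5e-05, limma), and depend on the 500 bp added. Both genes passed the filter, which asked for coverage in at least 2 lists, only through the DN3 lists where they were high. Ccr9 had 10.3 to 19.9 kb in DN3 lists, against 1.86 kb in induced and 2.10 kb in untreated fibroblasts, a log2 difference of 2.65 (SE 0.19, adjusted p = 1.2e-05). Il2ra had 11.4 to 17.4 kb in DN3 lists, against 3.11 kb in induced and 3.42 kb in untreated fibroblasts (2.05, SE 0.19, adjusted p = 4.5e-05). Every DN3 list of these 4 genes was above both fibroblast lists, an order that 10.2% of all genes showed and 6 of the 8 members.

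Smaller differences were found at Flt3, with 9.87 to 18.8 kb in DN3 lists against 7.08 kb in induced and 6.20 kb in untreated fibroblasts (1.00, SE 0.22, adjusted p = 0.00403, limma). At Il2rg DN3 lists had 4.84 to 7.88 kb, against 2.58 kb in induced and 3.57 kb in untreated fibroblasts (0.88, SE 0.14, adjusted p = 0.00098). Again no DN3 list reached down to the fibroblast lists. Kit was called (1.65, SE 0.55, adjusted p = 0.0277) although EV list 1 and both fibroblast lists were at 0 alike, so its lists overlapped. It too passed the filter only through DN3 lists. Without the untreated fibroblast list the Kit difference was 0.26, with an adjusted p of 0.545. The Kit call was also lost with no filter, at equal list length, at the stricter threshold and by number of peaks (adjusted p from 0.0656 to 0.146), while the other 7 members were called in each.

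Cd44 had 0.26 to 0.39 kb of SMC1 in DN3 lists, against 19.0 kb in induced and 25.7 kb in untreated fibroblasts, in 15 and 23 peaks. The log2 difference was -4.77 (SE 0.16, adjusted p = 7.83e-07, limma), the reverse of the other 7. All DN3 lists were below both fibroblast lists, as for 62.6% of all genes. Fibroblast SMC1 peaks lay over the whole Cd44 promoter, 4420 bp wide in induced and 4592 bp wide in untreated cells, and no DN3 list of any antibody had a peak there. H3K27ac lists of fibroblasts were not analysed here.

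**Figure D5:**
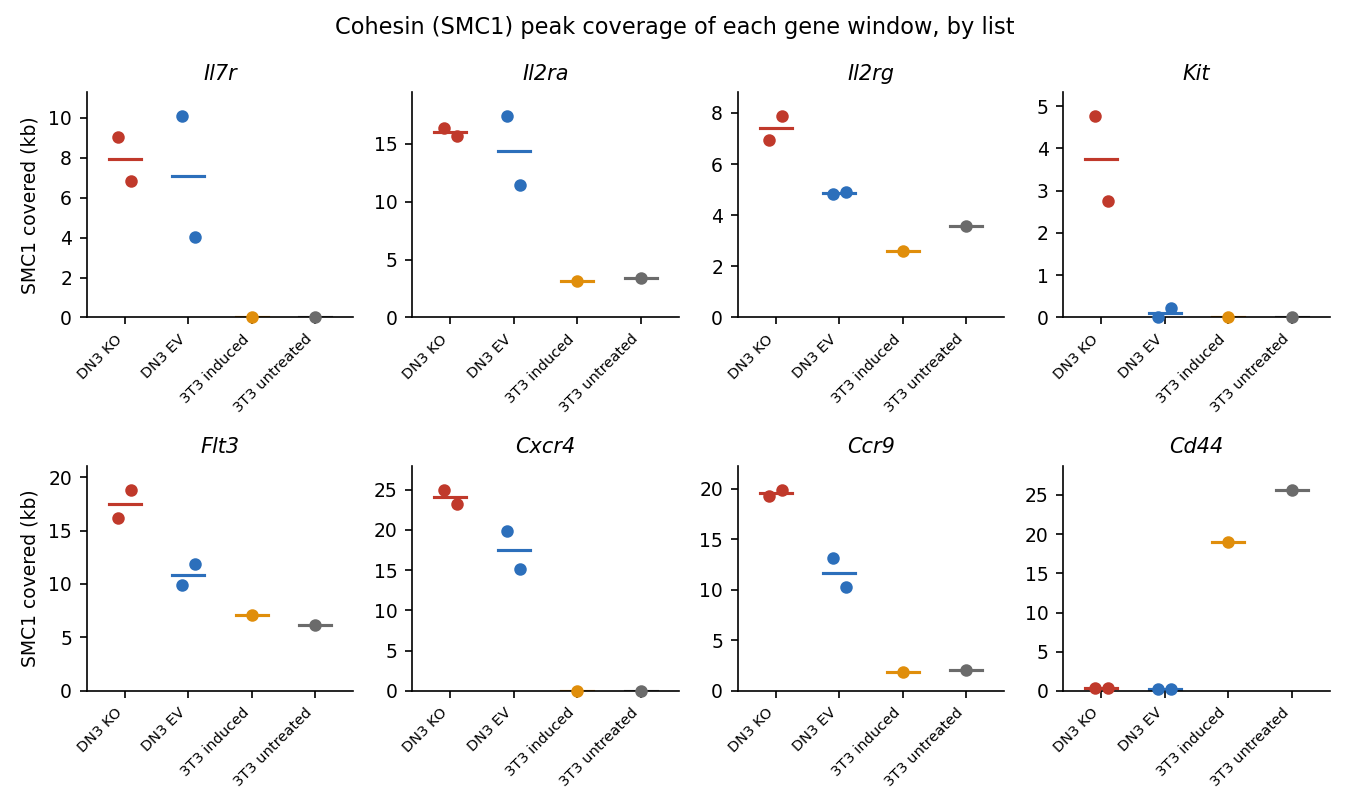
SMC1 coverage (kb, y axis, from 0, a scale per panel) of each gene window in the 2 DN3 KO, 2 DN3 EV, 1 induced and 1 untreated fibroblast list; points are lists and lines are group means. Il7r, Kit and Cxcr4 are at 0 in both fibroblast lists, and Cd44 reaches 19.0 and 25.7 kb there.

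For CTCF, Cxcr4 was the only one of 6 tested members called between the lines. Its window had 3.43 and 1.90 kb in KO lists and 1.29 and 3.43 kb in EV lists, and was listed at 0 in all 4 fibroblast lists, so that no list overlapped (3.55% of all genes were higher in this way). The fitted difference was 2.51 (SE 0.27, adjusted p = 7.55e-06, limma), where 2.04% of all genes were higher in DN3 and 7.28% lower. It depends on the 500 bp added, and Cxcr4 passed the filter only through the DN3 lists where it was high. Cd44 had 0.36 to 0.42 kb in DN3 lists, all below the 0.63 to 1.07 kb of the fibroblast lists (11.4% of all genes were lower in this way), but with an adjusted p of 0.156 (by number of peaks Cd44 was called lower, adjusted p = 0.0118, limma). Il2ra, Il2rg, Flt3 and Ccr9 overlapped between the lines. With lists centred these 4 were called higher beside Cxcr4 (log2 differences of 0.41 to 0.76 for the 4), where 20.1% of all genes were called higher and 20.2% lower.

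In fibroblasts alone, induced lists had more CTCF than untreated lists at Flt3 (6.23 and 5.87 kb in induced against 2.78 and 3.73 kb in untreated lists). Ccr9 had 1.78 and 1.30 kb in induced and 0.74 and 0.92 kb in untreated lists, and Il2ra 2.42 and 2.35 kb in induced and 1.97 and 1.86 kb in untreated lists. Il2rg had 422 and 657 bp in induced and 348 and 418 bp in untreated lists. Both induced lists were above both untreated lists at these 4 of the 5 members with CTCF there, as they were at 93.1% of all genes, and both induced CTCF lists were longer over the genome. Only Cd44 overlapped, with 0.70 and 1.07 kb in induced and 0.63 and 0.75 kb in untreated lists. With 2 lists against 2 the smallest exact p is 0.33, so no exact test of a single gene could pass. In a limma test of whether the difference with minus without TCF-1 was unlike between the cell lines, Flt3 and Ccr9 were called for CTCF, where 63.9% of all genes were, and with lists centred no member was (0.916% of genes). For SMC1 the same test called no member as deposited (1.06% of genes) and Kit with lists centred (0.431% of genes).

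The wider pathway was followed in 32 genes of cytokine signalling, ligands, and homing and adhesion. They were chosen with earlier results of these data known, so counts among them are a description only. For H3K27ac 4 of 28 tested were higher and 12 lower in KO cells, against 9.48% and 11.7% of all genes, with a median of -0.22 beside -0.02 over all genes. Of the 12 lower, 7 were homing and adhesion genes, of which 11 were tested. By size the leading ones were Cd69, a retention receptor of lymphocytes, with 1.08 to 1.66 kb in KO lists and 6.73 to 6.75 kb in EV lists (log2 difference -1.97, adjusted p = 0.00313, limma). Ccr7, which guides thymocytes to the medulla, had 5.82 to 6.26 kb in KO lists and 21.3 to 21.5 kb in EV lists (-1.75, adjusted p = 0.000842). S1pr1, the exit receptor and 1 of these 7, was listed at 0 in KO lists and had 0.90 to 1.35 kb in EV lists. It thus passed the filter only through the EV lists. Kitl, the ligand of Kit, had 0 to 0.20 kb in KO lists and 1.54 to 1.75 kb in EV lists (-1.85, adjusted p = 0.00574). Il2rb, the partner chain of Il2ra and Il2rg, had 4.37 to 6.85 kb in KO lists and 14.8 to 15.6 kb in EV lists (-1.39, adjusted p = 0.0125). Cish, an inhibitor of cytokine signalling, rose, with 5.96 to 6.22 kb in KO lists and 1.70 to 2.08 kb in EV lists (1.47, adjusted p = 0.00236).

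For SMC1, 4 of 30 tested pathway genes were higher in KO (Itga4, Socs3, Itgae and Ccr7, log2 differences of 1.17, 0.84, 0.83 and 0.73, limma) and 0 lower, near the 13.7% and 0.168% of all genes, with a median of 0.36 beside 0.35 over all genes. With lists centred none of these 4 was called (log2 differences of 0.82, 0.48, 0.47 and 0.37, adjusted p from 0.12 to 0.342), and of the pathway genes Il2rb was called, as lower. For NIPBL and CTCF 0 of 26 and 0 of 28 were called. At Ccr7 SMC1 covered 7.51 to 8.06 kb in KO lists and 4.02 to 5.01 kb in EV lists. Between the lines, SMC1 was higher in DN3 for 3 of 32, Itga4 and Itgal among them, and lower for 24, against 9.72% and 59.2% of all genes, with a median of -0.85 beside -0.67. With lists centred 9 were higher and 8 lower. Cxcl12, the Cxcr4 ligand, had 0.73 to 0.90 kb in DN3 lists and 15.3 to 20.2 kb in fibroblast lists (-3.81, adjusted p = 1.98e-06), and Kitl 0.58 to 0.72 kb in DN3 lists and 12.1 to 12.4 kb in fibroblast lists (-3.46, adjusted p = 1.79e-06). Socs1 was listed at 0 in DN3 lists and had 10.8 to 12.7 kb in fibroblast lists. For CTCF, of 31 tested, Itga4 was called higher in DN3 (1.13 to 1.99 kb in DN3 lists and 0.38 to 0.72 kb in fibroblast lists), and Socs1 and Kitl were called lower. Both of these were listed at 0 in every DN3 list for CTCF, as Socs1 was for SMC1, and so passed the filter only through the fibroblast lists.

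Over all 25 lists, the windows whose coverage followed a member most closely were ranked by Pearson's r on log2 values less the list median, as a description over lists of different antibodies. Il7r was most like Mettl8 (0.98), Ripk4 and Adora2a, Il2ra like Ikzf3 (0.98), Syt13 and Sycn, and Il2rg like Cd3g (0.98), Egln3 and Tcf7. Flt3 was most like Cd8b1 (0.98), Cadm1 and Fam3b. Cxcr4 followed H2-T3 (0.98) and Arpp21, and Ccr9 followed Scml4 (0.98), Ptprc and Ostm1. Kit had the weakest likeness, with Xlr3a (0.86), Try5 and Naa11, and Cd44 was most like Osr1 (0.99), Thbs1 and Col3a1.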

How the data were processed

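Chromatin from 2 mouse cell lines was immunoprecipitated and sequenced as paired reads, per the labels' protocols. Bowtie2, MACS2, bedtools and mm10 are named per the submitters' processing notes; for versions, settings, control libraries and pooling, the entry is not given in the sources used here. The CTCF, SMC1 and TCF-1 lists give positions only, as deposited. The NIPBL and H3K27ac lists also hold a fold enrichment and a −log10 q-value per peak, which the authors made, and these serve only to describe and rank peaks within their own list.

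Covered bp per window were computed for 21887 protein-coding genes of GRCm38.p6 (RefSeq) and fitted as log2(covered bp + 500) with limma 3.58.1 (trend), over genes covered in at least 2 lists, with Benjamini-Hochberg adjustment over all of them. Called means an adjusted p under 0.05. Peaks of the 4 DN3 lists of an antibody were merged where they overlapped by at least 1 bp, and KO-only regions were in both KO lists and no EV list. Python 3.11.15, pandas 2.3.3, bedtools 2.31.1 and R 4.3.3 were used, and the fit was tested on simulated data. The members, the 32 pathway genes and the markers were chosen with earlier results of these data known. All members are named, with pathway genes called by the test (at most 6 per comparison by size of difference, except lists of called names) and the 3 most alike genes of each member. Alternatives were list centring, another pseudocount, no filter, other flanks, equal list length (every list cut to the shortest by rank), a stricter threshold (the better-ranked peaks of each list, by width or −log10 q-value), peak numbers, a replicate block and leaving out each list. Same-numbered lists are not said to be paired. The test of the difference between cell lines, a crossed block and leaving out a TCF-1 list were added after the data were seen. Some genes that these rules would name are not reported here.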

Additional observations from a re-analysis of the deposited data

Results flagged for a closer look

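The CTCF difference with minus without TCF-1 was unlike between the cell lines at Flt3 and Ccr9, by an interaction term in limma. At Flt3 it was -0.36 in DN3 cells (EV minus KO) and 0.81 in fibroblasts (induced minus untreated), a difference of -1.18 on the log2 scale (adjusted p = 0.0141). At Ccr9 it was -0.43 in DN3 cells and 0.61 in fibroblasts, a difference of -1.04 (adjusted p = 0.0305). By the same test 63.9% of all 18881 genes were called. With lists centred on their medians the differences were -0.14 at Flt3 (adjusted p = 0.709) and -0.0045 at Ccr9 (adjusted p = 0.993), and 0.916% of genes were called. For SMC1 each fibroblast condition had 1 list, so calls are not counted. At Kit the difference was -2.79 as deposited and -2.50 with lists centred. Its fibroblast lists were both at 0, so this restates the DN3 difference and cannot compare the lines.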

How the results depend on the processing

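Of the values of called members under an alternative, 156 kept the call, 37 lost it and 0 changed sign. Of those of members not called, 21 gained a call, with the same sign, and 31 changed sign without a call. The cause of a lost or gained call was not tested. Depth is unknown for every list, and 2 lists against 2 leave few degrees of freedom.

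Members called for SMC1, KO against EV, were 4, all higher, where 2521 of 18465 genes were called higher. They were 1 with lists centred (177 of 18465 genes), 0 with no filter (377 of 21887) and 2 with flanks of 10 kb (845 of 16895). Only Kit was called at equal list length (476 of 18097) and at the stricter threshold (843 of 16650). By number of peaks Ccr9 was called and Kit was not (1143 of 18465). For H3K27ac 1 member was called, as lower, where 1731 of 14785 genes were called lower. The count became 2 with a pseudocount of 100 bp (Kit added, 1695 of 14785 genes) and 0 with no filter (890 of 21887). With flanks of 100 kb it was 3 (Il2ra and Ccr9 added, 3241 of 17093), and by number of peaks 0 (1089 of 14785). For NIPBL 0 became 1 by number of peaks (Il7r, where 371 of 13776 genes were called higher). For CTCF 0 stayed 0 in DN3 cells under each alternative that kept every list. In KO against EV fits with a list left out, 1 condition rests on 1 list. Their calls are in the tallies that open this section but are not given per antibody. Between the lines SMC1 called 8 members, where 1850 of 19035 genes were called higher and 11273 lower. It called 7, all but Kit, with no filter (1608 higher and 10333 lower of 21887) and at equal list length (2387 and 10445 of 18634). The same 7 were called at the stricter threshold (1724 and 9787 of 17714) and by number of peaks (2894 and 4259 of 19035). Without the untreated fibroblast list the Kit difference was 0.26. CTCF called 1 member higher between the lines (385 of 18881 genes were), and 5 with lists centred (3792 of 18881). Il2rg was added with flanks of 10 kb (386 of 17326 genes higher) and at equal list length (1170 of 18194), giving 2 each. By number of peaks Cd44 was added as lower (622 of 18881 genes lower), giving 2. Leaving out a list gave 1 to 2, with Ccr9 added without EV list 1 (850 of 18873 genes higher).

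KO-only and EV-only SMC1 regions in the windows, 18 and 2, became 11 and 1 when merging across 500 bp. KO-only became 8 at the stricter threshold and 9 with flanks of 10 kb. EV-only became 4 with an overlap of 50% and 4 at equal list length. Leaving out a list gave 27 to 54 KO-only and 4 to 25 EV-only regions. For every antibody, a list left out loosens the class, since that condition is then judged on 1 list. Such counts are not comparable with the main ones. For CTCF, 2 KO-only became 0 at equal list length, 0 at the stricter threshold and 1 with flanks of 10 kb, 0 EV-only became 1 at the stricter threshold, and leaving out a list gave 3 to 6 and 0 to 2. For NIPBL, 6 KO-only became 2 at equal list length and 2 at the stricter threshold, 0 EV-only became 1 at equal list length, and leaving out a list gave 6 to 21 and 0 to 1. For H3K27ac, 1 KO-only became 0 at the stricter threshold and 0 with flanks of 10 kb, 3 EV-only became 0 and 1 there, and leaving out a list gave 2 to 3 and 4 to 11. DN3 windows with a TCF-1 site, 4, became 1 at the stricter threshold, and fibroblast windows, 3, became 1 at equal list length.

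The replicate block called 5 members for SMC1 (Cxcr4 in addition, limma adjusted p = 0.0494; 6276 genes against 2552 without a block), 1 for H3K27ac and 0 for NIPBL and CTCF (147 genes against 279 for CTCF). Deviations of same-numbered lists correlated at 0.13 for SMC1, -0.0007 for H3K27ac, -0.16 for CTCF and -0.25 for NIPBL. A crossed pairing, added after seeing the data, called 0 members and 132 genes for CTCF and 3 members and 1935 genes for NIPBL, against 0 genes without a block.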
